A study of Homo sapiens with 6 samples.

Results

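The genes described here are 35 genes of the basement membrane and the extracellular matrix, out of 19775 genes measured in HUVECs, primary endothelial cells that line the vein of the human umbilical cord. They were chosen by name from the probe annotation of the array, and each gene is represented by the probe set, among those annotated with exactly 1 symbol, that was brightest on average over all 6 arrays. All 35 were found. They comprise 15 basement membrane genes, 5 fibrillar collagens, 3 fibril-associated or microfibrillar collagens, 9 glycoproteins, proteoglycans and matricellular proteins, and 3 crosslinking enzymes. No filter on low values was applied, so every member was tested.

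Both groups were HUVECs from a commercial supplier, grown in an endothelial medium with serum, growth factors, heparin, hydrocortisone and ascorbic acid, and transfected with the reagent TransIT-X2. The ANRIL siRNA group (3 arrays) received a duplex against ANRIL, a long noncoding RNA listed as CDKN2B-AS1, and the control siRNA group (3 arrays) a scrambled duplex. Total RNA was hybridised to Affymetrix U133 Plus 2.0 arrays, 1 array per transfected sample, and the comparison asks which genes change when ANRIL is targeted. The labels used here name no siRNA dose, time after transfection or number of donors, and p-values therefore measure the spread between these samples, which may be technical. In such bulk samples, fewer cells of a type and less RNA per cell cannot be told apart.

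Basement membranes are thin sheets of matrix under endothelial and epithelial cells. Laminins and type IV collagen each form a network in them, nidogens and the heparan sulfate proteoglycans perlecan and agrin join these networks, and peroxidasin and lysyl oxidases crosslink collagens. In blood vessels the endothelium itself makes much of this sheet, whereas the fibrillar collagens of the tissue beyond it are largely made by fibroblasts and smooth muscle cells. Fibronectin, thrombospondin and fibrillin are also secreted by cultured endothelial cells.

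The agent of the study is shown first, since it is what was given to one group and not the other. The antisense strand has 27 bases, of which 25 pair with the sense strand and 2, in capitals, are unpaired at its 3′ end.
ANRIL siRNA sense: ggauaugugccaugaguaagaauaa
ANRIL siRNA antisense: uuauucuuacucauggcacauauccAU

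COL4A1 and COL4A2 encode the main chains of type IV collagen and are transcribed away from each other from neighbouring starts, so that 226 of the 300 bases of their RefSeq promoter windows (250 before to 50 after each start) are shared. The 126 bases between the starts, at chr13:110307158-110307283 on the plus strand of GRCh38.p14, are shown because both genes have them in their windows. Their part in the values of either gene was not tested. The stretches of NID1 (chr1:236065091-236065240, minus strand) and LAMB1 (chr7:108003162-108003311, minus strand) are the 150 bases before the start of the 2 basement membrane genes with the smallest p. Capitals mark CCAAT or GGGCGG on either strand, and no CCAAT overlapped a GGGCGG.
COL4A1-COL4A2: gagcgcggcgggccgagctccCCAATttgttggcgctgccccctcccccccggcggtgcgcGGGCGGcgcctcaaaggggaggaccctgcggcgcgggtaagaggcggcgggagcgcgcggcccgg
NID1: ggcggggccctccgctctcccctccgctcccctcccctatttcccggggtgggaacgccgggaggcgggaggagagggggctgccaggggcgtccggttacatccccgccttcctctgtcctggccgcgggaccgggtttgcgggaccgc
LAMB1: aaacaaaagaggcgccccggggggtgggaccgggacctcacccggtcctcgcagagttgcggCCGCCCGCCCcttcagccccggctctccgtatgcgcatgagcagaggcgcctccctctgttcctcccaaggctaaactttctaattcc

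A promoter window was found in the RefSeq table for 25 of the 35 members, with 29 windows in all because some genes have several starts. On either strand, GGGCGG, the core of a GC box, was present in 22 of the 29 windows (75.9%) against 45% of 35116 windows of the same length. CCAAT was present in 9 (31%, against 34.6%) and TATAAA in 3 (10.3%, against 11.5%). The stretch shown for NID1 holds neither CCAAT nor GGGCGG, while its longer windows hold both. A match describes the letters of a window and shows no binding.

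None of the 35 members passed the adjusted threshold. By limma with Benjamini-Hochberg adjustment over all 19775 genes, 0 were called at an adjusted p under 0.05, as were 0% of all genes, and the adjusted p-values of the members lay between 0.177 and 0.967. The differences in log2 value, taken as ANRIL siRNA minus control, were small, from −0.24 for NID1 to 0.15 for COL1A1. Of the members 29 lay below 0 and 6 above, with a median of −0.10, beside 51.4% of all genes below 0 and a median of 0.00. At an unadjusted p under 0.05, 10 members were lower, 28.6% of them, beside 8.16% of all genes, and 0 members were higher, beside 9.83% of all genes. Of the members, 30 were above the median signal, where 1383 of 9887 genes were lower and 312 higher. That count of 10 became 6 when control replicate 1 was left out, 4 when control replicate 2 was, and 3 when either replicate 1 or replicate 3 of ANRIL siRNA was. The shares of all genes in those fits were 7.68%, 4.43%, 5.48% and 5.04%, so that 3 of 35 members is close to the background. With an intensity-trended robust prior 4 members passed, NID1, LAMB1, COL4A2 and FBN1, all lower, where 2.15% of all genes were called lower and 0.582% higher. With cyclic loess normalization added to that prior, 0 members passed, beside 0.379% of all genes called lower. Among the genes above the median signal alone, 2.57% were called lower and 0.556% higher, and 0 of the 30 members there.

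**Figure D1:**
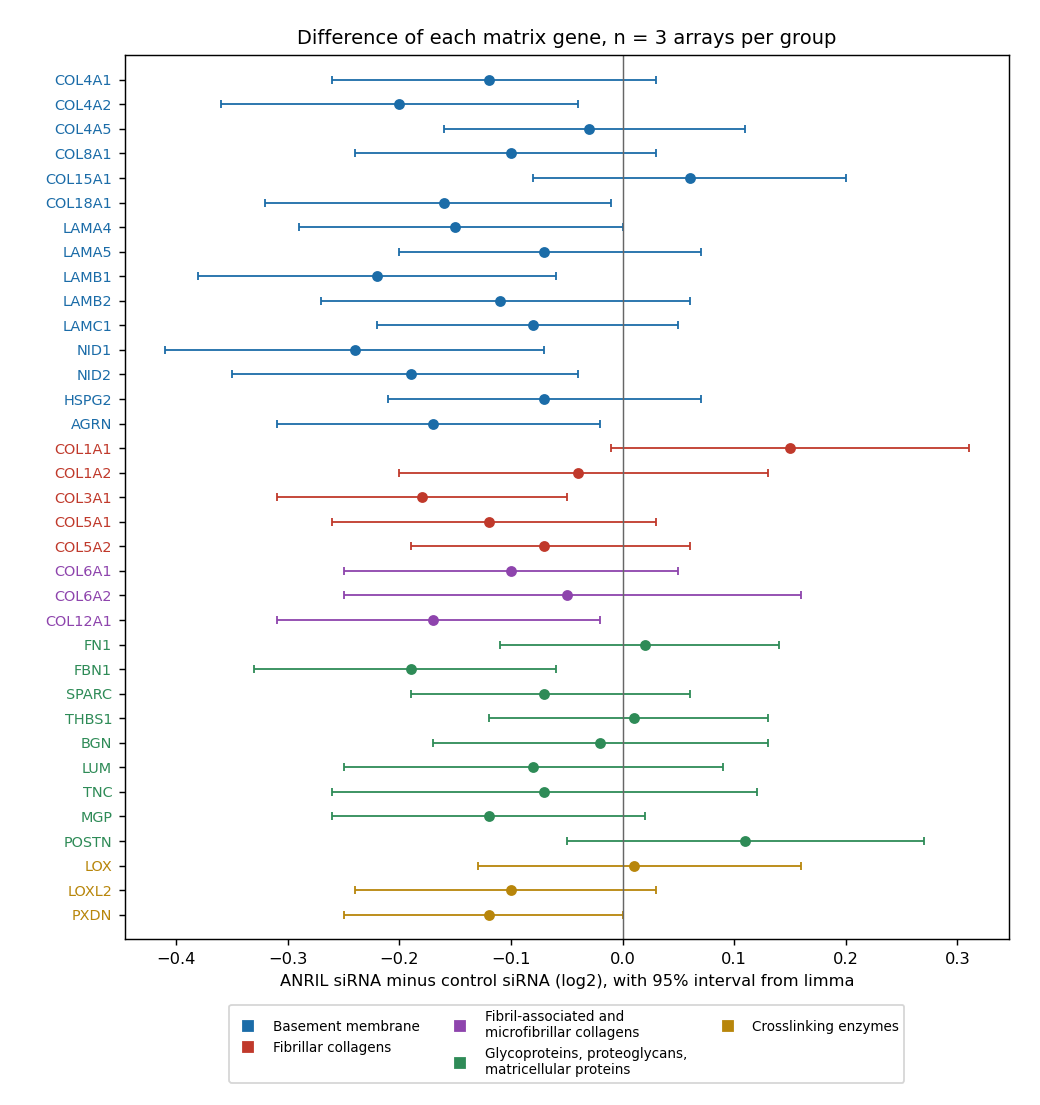
Difference between ANRIL siRNA and control siRNA (log2) for each of the 35 matrix genes, with the 95% interval from limma, n = 3 arrays per group, coloured by kind of matrix protein. Basement membrane genes other than COL15A1 lie below 0, and no member passed the adjusted threshold.

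Bright genes in general lay lower with ANRIL siRNA, and matrix genes are bright in these cells. With genes divided into 10 equal classes (deciles) of mean signal, 21 of the 35 members were in the brightest decile and 30 above the median. In that decile 87.7% of all 1977 genes lay below 0, with a median of −0.07, beside 18 of the 21 members (85.7%), with a median of −0.10. The share of members below 0 is therefore at the background of genes of like brightness. The 3 arrays of each group did not overlap, with ANRIL siRNA lower, at 12 of the 21 (57.1%) beside 35.9% of the decile, and an unadjusted p under 0.05 with a lower value was reached by 6 of the 21 (28.6%) beside 15.6%. Over the whole list, 24 of 35 members lay below the median of their own decile, among them 12 of 15 basement membrane genes, 3 of 5 fibrillar collagens and 9 of the 15 others.

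**Figure D2:**
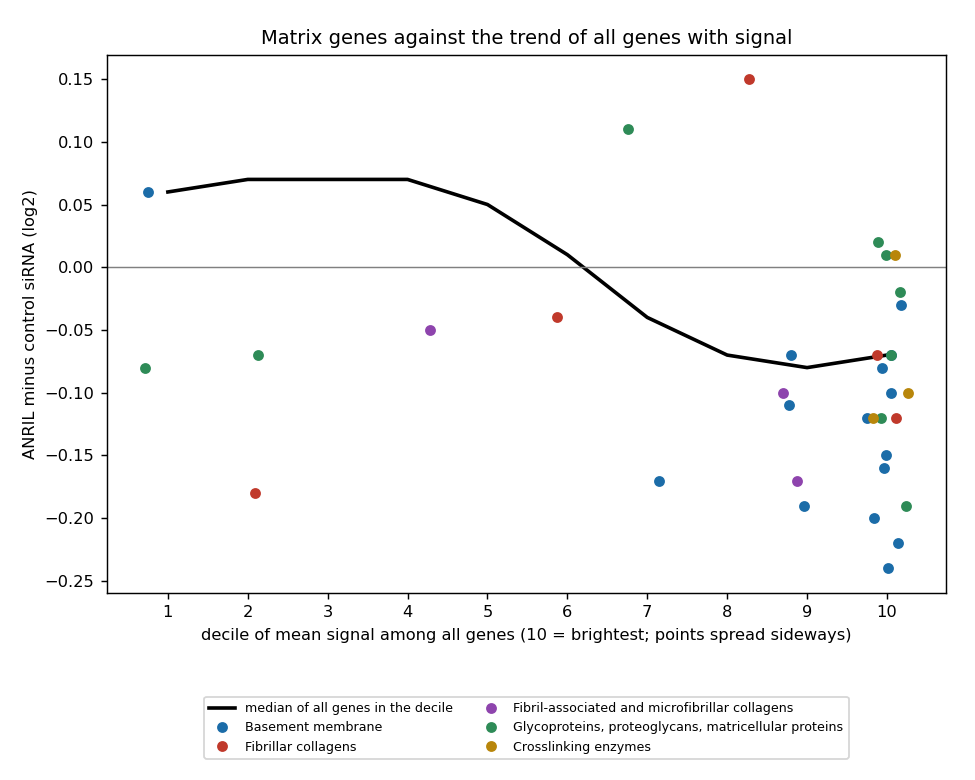
Difference between ANRIL siRNA and control siRNA (log2) of each matrix gene, plotted by its decile of mean signal (10 is the brightest), with the median of all genes in each decile as a black line. The line falls from 0.07 in deciles 2 to 4 to −0.08 in decile 9 and −0.07 in decile 10, and the 21 members of decile 10 lie on both sides of it.

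The basement membrane genes had a median difference of −0.12, beside −0.07 for the brightest decile, which holds 10 of the 15. Of the 15, 14 lay below 0, beside 51.4% of all genes and 87.7% of that decile. At an unadjusted p under 0.05, 7 were lower, beside 8.16% of all genes and 15.6% of that decile. In 8 of the 15 the groups did not overlap, with ANRIL siRNA lower, beside 12.8% of all genes and 35.9% of that decile. In none was ANRIL siRNA higher without overlap, beside 10.6% of all genes. Of the 15, 14 were above the median signal, where 477 of 9887 genes were higher without overlap. On the mean of the 15 genes, relative to the control mean, the control arrays lay at 0.01, 0.05 and −0.06 and the ANRIL siRNA arrays at −0.13, −0.08 and −0.17. Control replicate 3 thus stood nearest to the ANRIL siRNA arrays, and without it the median was −0.17. After cyclic loess, which removes the trend with brightness, 11 of 15 lay below 0 with a median of −0.04.

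The nidogens, which bridge the laminin and collagen networks, stood at the low end of the list. NID1 had log2 values of 11.37, 11.29 and 11.10 on the control arrays and 11.05, 11.04 and 10.95 on the ANRIL siRNA arrays. The groups did not overlap, and the gap between control replicate 3 and ANRIL siRNA replicate 1 was narrow. The difference was −0.24 ± 0.08 (SE, n = 3 per group), a 1.18-fold lower level (limma adjusted p = 0.177). The adjusted p was 0.0255 with the trended robust prior and 0.157 with cyclic loess added to that prior. NID2 had 9.96, 10.07 and 9.90 in the control group against 9.74, 9.88 and 9.74 in the ANRIL siRNA group. Its groups did not overlap either, and the difference was −0.19 ± 0.07 (adjusted p = 0.21).

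Of the 5 laminin chain genes among the members, LAMB1 had the difference farthest from 0. It read 13.07, 13.03 and 12.86 on the control arrays and 12.81, 12.80 and 12.69 on those of ANRIL siRNA. Every ANRIL siRNA array lay below every control array, by a difference of −0.22 ± 0.07 (adjusted p = 0.187). The adjusted p was 0.0141 with the trended robust prior and 0.133 with cyclic loess added to that prior. LAMA4, the α chain characteristic of vascular endothelium, differed by −0.15 ± 0.06 without overlap between the groups (adjusted p = 0.266). LAMC1, the common γ chain, differed by −0.08 ± 0.06, LAMB2 by −0.11 ± 0.07 and LAMA5 by −0.07 ± 0.06, all with overlapping groups. LAMA5 turned to 0.01 with cyclic loess and 0.02 with quantile normalization repeated.

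COL4A1 and COL4A2, whose promoter windows overlap, both had differences below 0, beside 87.7% of all genes in the brightest decile, which holds both. COL4A2 read 12.45, 12.57 and 12.41 under control siRNA, against 12.23, 12.40 and 12.20 under ANRIL siRNA. Its groups were barely apart, at control replicate 3 and ANRIL siRNA replicate 2, and the difference was −0.20 ± 0.07 (adjusted p = 0.211). The adjusted p was 0.0284 with the trended robust prior and 0.146 with cyclic loess added to that prior. COL4A1 read 13.03, 13.06 and 12.89 against 12.88, 12.92 and 12.84, with overlap through control replicate 3 and ANRIL siRNA replicate 2, and a difference of −0.12 ± 0.07 (adjusted p = 0.372). COL4A5, a chain found in fewer basement membranes, differed by −0.03 ± 0.06 (adjusted p = 0.825), and turned to 0.05 with cyclic loess and 0.07 with quantile normalization repeated.

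Among the other basement membrane collagens, COL18A1, whose C-terminal fragment is endostatin, differed by −0.16 ± 0.07 without overlap (adjusted p = 0.247), and COL8A1, a short network-forming collagen of vessel walls, by −0.10 ± 0.06, also without overlap (adjusted p = 0.40). COL15A1 lay near the floor of the array, at percentile 2.74 of mean signal, with 3.76 ± 0.07 (mean ± SD, n = 3) under control siRNA and 3.82 ± 0.01 under ANRIL siRNA, so its value says little about the gene. HSPG2, which encodes perlecan, differed by −0.07 ± 0.06 with overlapping groups, and its difference was 8e-05 after cyclic loess. AGRN, which encodes agrin, differed by −0.17 ± 0.06 without overlap (adjusted p = 0.226), but by 0.14 at its brightest probe set whose identifier does not end in _s_at or _x_at.

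**Figure D3:**
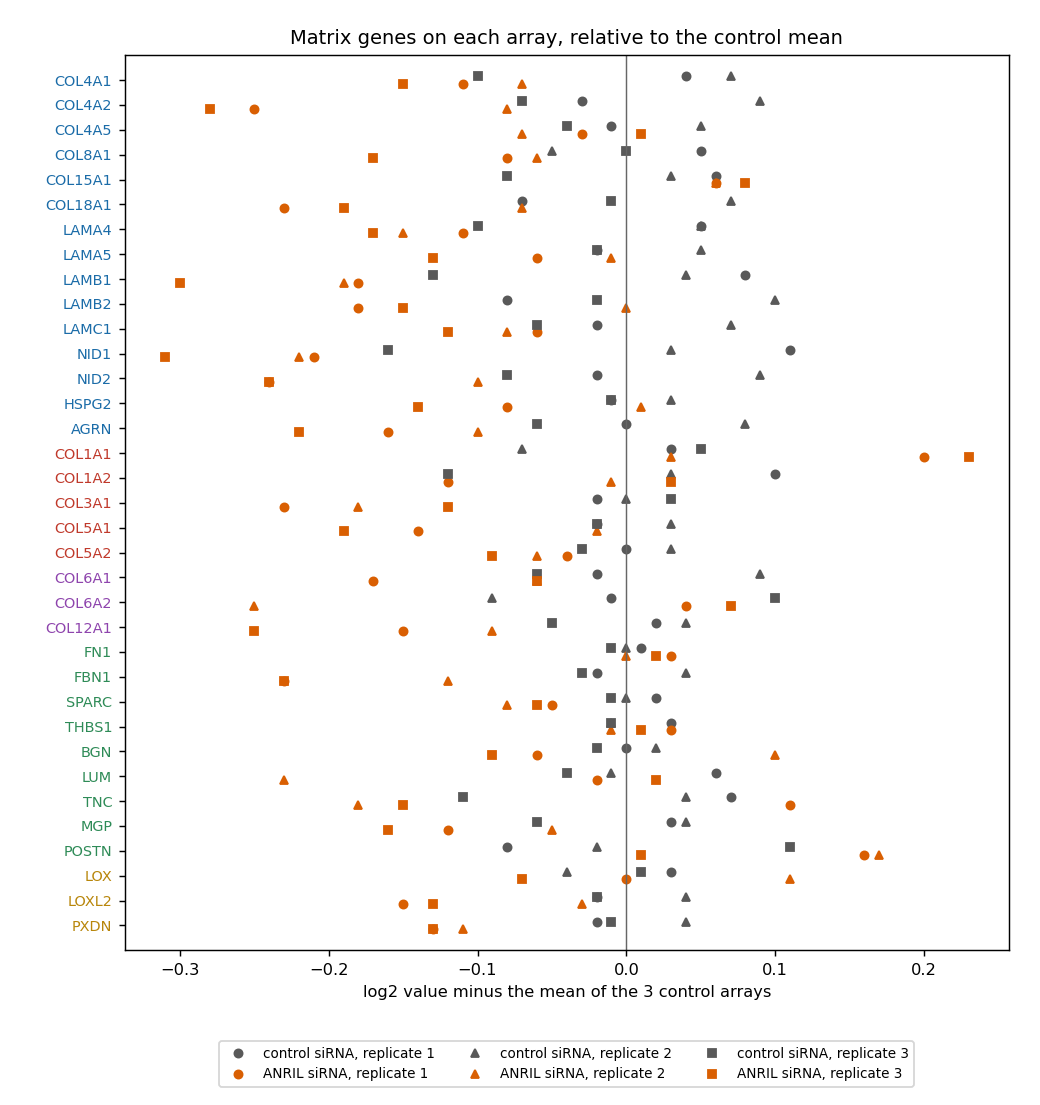
Log2 value of each matrix gene on each of the 6 arrays, minus the mean of the 3 control arrays; grey marks are control siRNA, orange marks are ANRIL siRNA, and the shape gives the replicate. For NID1, LAMB1, NID2, COL4A2 and FBN1 all 3 orange marks lie left of all grey marks, while FN1 and THBS1 marks lie close to 0.

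The fibrillar collagens form the cable-like fibrils of interstitial matrix. As a group their median difference was −0.07, with 4 of 5 below 0, beside −0.12 and 14 of 15 for the basement membrane genes. The ANRIL siRNA arrays lay at −0.07, −0.05 and −0.03 of the control mean over these 5 genes, and the control arrays at 0.02, 0.00 and −0.02. After cyclic loess the medians were −0.02 for the fibrillar and −0.04 for the basement membrane genes, and no test of the difference between these lists was made.

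The 5 fibrillar genes did not move as 1 set. COL1A1 read 9.45, 9.35 and 9.47 under control siRNA, against 9.62, 9.45 and 9.65 under ANRIL siRNA. ANRIL siRNA replicate 2 lay among the controls and the other 2 above them, a difference of 0.15 ± 0.07 (adjusted p = 0.304). That is its brightest probe set, and its dimmer ones gave 0.10, 0.02, −0.09 and 0.00. The mean over all 5 was 0.04, so the rise of COL1A1 rests largely on 1 probe set. COL1A2, the partner chain of COL1A1 in type I collagen, differed by −0.04 ± 0.07 with overlap (adjusted p = 0.816). COL3A1, which encodes type III collagen, read 5.13, 5.15 and 5.18 against 4.92, 4.97 and 5.03. These groups did not overlap, and the difference was −0.18 ± 0.06 (adjusted p = 0.184), at percentile 17.4 of mean signal. COL5A1 and COL5A2, whose type V collagen starts and limits fibrils, were both bright in these cells and differed by −0.12 ± 0.06 and −0.07 ± 0.06 without overlap (adjusted p = 0.357 and 0.559). COL5A2 turned to 0.01 with either cyclic loess or quantile normalization. COL3A1 and COL5A2 are neighbours on their chromosome, as are COL6A1 and COL6A2.

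The fibril-associated and microfibrillar collagens, which link fibrils to their surroundings, all lay below 0, with a median of −0.10. COL12A1 read 9.90, 9.92 and 9.83 under control siRNA, against 9.73, 9.79 and 9.63 under ANRIL siRNA, with no overlap and a difference of −0.17 ± 0.06 (adjusted p = 0.226). COL6A1 read 9.76, 9.87 and 9.72 against 9.61, 9.72 and 9.72, a separation that is not visible at 2 decimals, with a difference of −0.10 ± 0.07 (adjusted p = 0.435). Averaged over its 8 probe sets the difference was 0.01. COL6A2, of lower signal, differed by −0.05 ± 0.09 with overlap and was 0.07 when its probe sets were averaged.

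Of the 9 glycoproteins, proteoglycans and matricellular proteins, 6 lay below 0, with a median of −0.07 that was 0.00 after cyclic loess. FBN1, which encodes the microfibril protein fibrillin-1, read 10.81, 10.87 and 10.80 under control siRNA, against 10.60, 10.71 and 10.60 under ANRIL siRNA. The groups were apart, with a difference of −0.19 ± 0.06 (adjusted p = 0.178). The adjusted p was 0.046 with the trended robust prior and 0.16 with cyclic loess added to that prior. MGP, the matrix Gla protein that restrains calcification, read 13.88, 13.89 and 13.79 against 13.73, 13.80 and 13.69. ANRIL siRNA replicate 2 overlapped control replicate 3, and the difference was −0.12 ± 0.06 (adjusted p = 0.341).

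FN1 and THBS1, read at percentiles 99.9 and 99.7 of mean signal, gave differences near 0 at their brightest probe sets. Dimmer ones ranged from −0.26 to 0.05 for FN1 and from −0.29 to 0.19 for THBS1. Of the 7 probe sets of each gene, 1 of FN1 and 5 of THBS1 lay below 0. FN1, fibronectin, read 14.72 ± 0.01 (mean ± SD, n = 3) with control siRNA and 14.74 ± 0.01 with ANRIL siRNA, a difference of 0.02 with a 95% interval of −0.11 to 0.14. THBS1, the antiangiogenic thrombospondin-1, differed by 0.01 (95% interval −0.12 to 0.13). Both turned slightly below 0, to −0.03 and −0.05, when arrays were centred on their medians. SPARC, a collagen-binding matricellular protein, read 13.71 ± 0.01 against 13.65 ± 0.01 without overlap, a difference of −0.07 ± 0.06 that was 0.0044 after cyclic loess. BGN, the proteoglycan biglycan, differed by −0.02 ± 0.07 (0.06 with either cyclic loess or quantile normalization). POSTN, which encodes periostin, differed by 0.11 ± 0.07 with overlap (adjusted p = 0.433). LUM (lumican) and TNC (tenascin-C) lay near the floor, at percentiles 1.44 and 11.1 of mean signal, and differed by −0.08 ± 0.07 and −0.07 ± 0.09.

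The crosslinking enzymes gave values in the range of the proteins they act on. PXDN, the peroxidase that crosslinks type IV collagen, read 12.23, 12.29 and 12.24 under control siRNA, against 12.12, 12.14 and 12.12 under ANRIL siRNA. The groups did not overlap, and the difference was −0.12 ± 0.06 (adjusted p = 0.29). LOXL2, a lysyl oxidase-like enzyme of basement membranes, read 13.12, 13.18 and 13.12 against 12.99, 13.11 and 13.01, again without overlap and with a difference of −0.10 ± 0.06 (adjusted p = 0.386). LOX, the lysyl oxidase of fibrillar collagen and elastin, differed by 0.01 ± 0.06 with overlap (adjusted p = 0.939), and turned to −0.04 when arrays were centred on their medians.

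The 35 members were read by 108 probe sets, of which 72 (66.7%) lay below 0 beside 46.1% of all 54613 probe sets. Beyond the brightest of each gene, 43 of 73 (58.9%) lay below 0. Of the 31 members with more than 1 probe set, 16 had all of them below 0, among them COL4A1, COL4A2, COL18A1, LAMA4 with 5, LAMB1, LAMC1, COL5A1 and PXDN, and POSTN had all 4 above 0. For HSPG2 the brightest probe set differed by −0.07 and the next by −0.31 ± 0.07, and for COL4A2 the second differed by −0.36 ± 0.09 (adjusted p = 0.22 over all probe sets for both). FN1 had 6 of 7 above 0 and the other at −0.26 ± 0.08, and THBS1 had values from −0.29 ± 0.08 to 0.19 ± 0.07. NID1 differed by 0.14 at its dimmest probe set against −0.24 and −0.18 at the other two. COL3A1 differed by −0.27 at its second probe set, but by 0.18 and 0.11 at the third and the fourth, so its direction depends on the probe set.

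**Figure D4:**
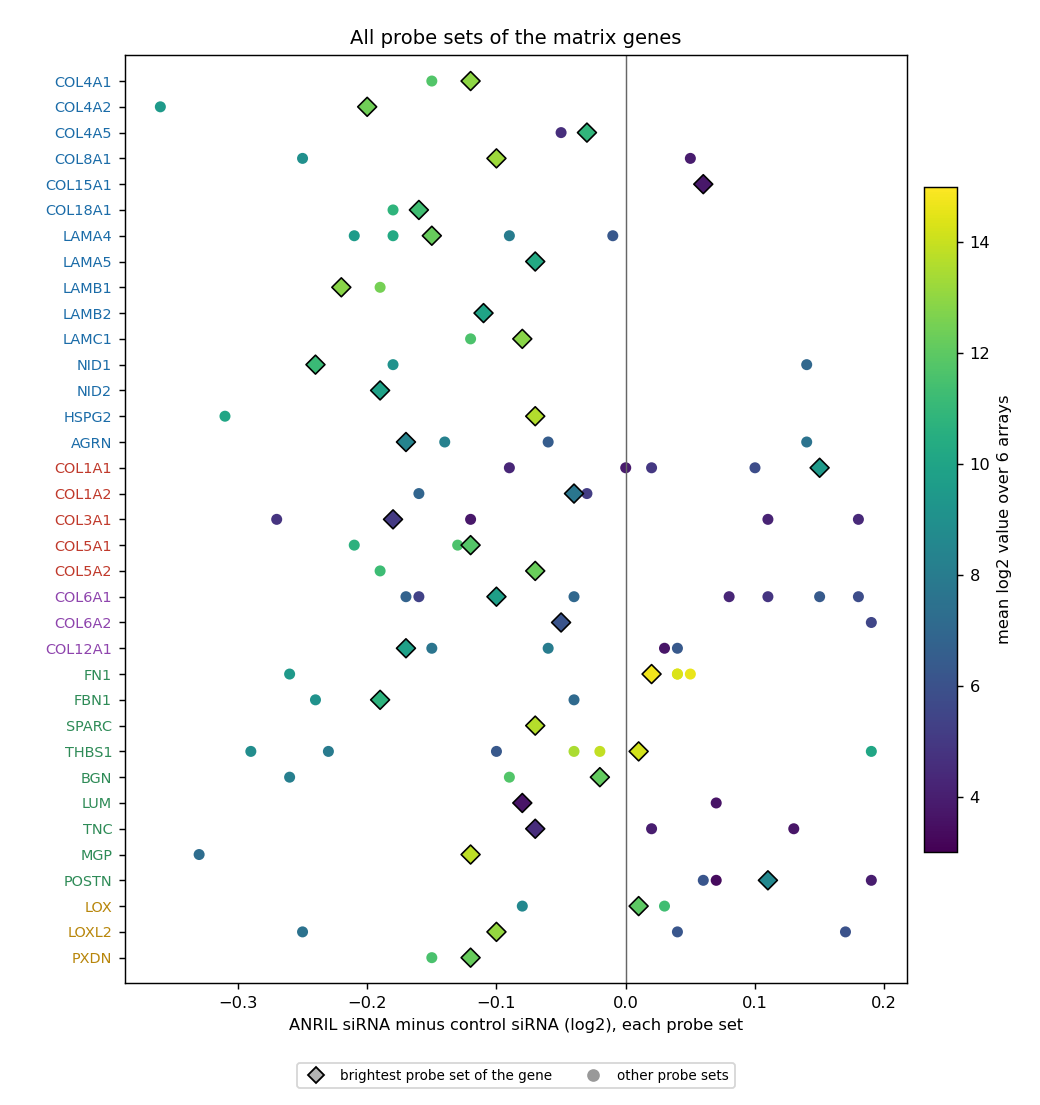
Difference between ANRIL siRNA and control siRNA (log2) at each of the 108 probe sets of the matrix genes, coloured by mean log2 signal; diamonds are the brightest probe set of each gene. Points of LAMA4, LAMB1, COL5A1 and PXDN lie on the same side of 0, while those of COL3A1, COL6A1 and THBS1 lie on both sides.

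After cyclic loess between arrays, 23 of 35 members lay below 0, with a median of −0.03, beside 46.3% of all genes below 0 and a median of 0.01. The groups then did not overlap, with ANRIL siRNA lower, at 5 members, beside 8.61% of all genes. ANRIL siRNA was higher without overlap at COL1A1, FN1 (0.08) and BGN (0.06). No share of all genes was taken for that direction, so these members cannot be set against a background. At an unadjusted p under 0.05, 3 were lower, AGRN (−0.12), COL3A1 (−0.24) and FBN1 (−0.11), beside 5.88% of all genes, and 2 were higher, COL1A1 (0.22) and POSTN (0.16), beside 7.51%. NID1 (−0.16 ± 0.07) and LAMB1 (−0.14 ± 0.07) kept their sign with an unadjusted p above 0.05. With repeated quantile normalization 25 members lay below 0, and with arrays centred on their medians 32.

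**Figure D5:**
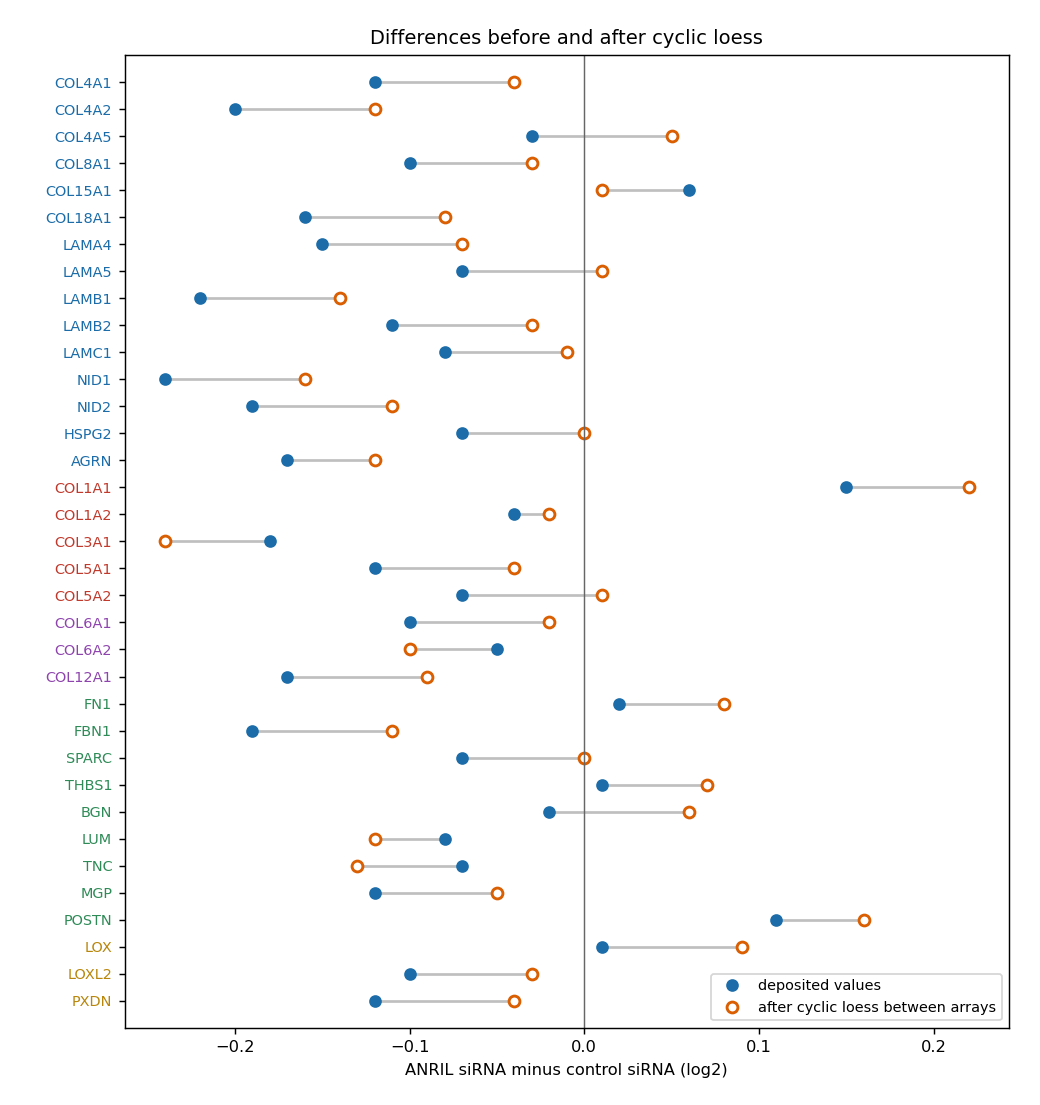
Difference between ANRIL siRNA and control siRNA (log2) of each matrix gene in the deposited values (filled) and after cyclic loess between arrays (open). Most bright genes move up, which brings SPARC and HSPG2 to 0.00, while COL3A1 moves from −0.18 to −0.24 and COL1A1 from 0.15 to 0.22.

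Across probe sets, arrays of the same group had r of 0.9971 to 0.9977 and arrays of different groups 0.9964 to 0.9974, and array medians lay between 6.14 and 6.23. ANRIL itself was near the floor, at a difference of −0.10 ± 0.10, which gave no check of the knockdown. Within its group, ANRIL siRNA replicate 2 was highest at 18 of the 35 members and control replicate 2 at 20, while control replicate 3 was lowest at 24 and ANRIL siRNA replicate 3 at 19. No share of all genes was taken for these counts. A sign of RNA or labelling quality was higher on average with ANRIL siRNA, with overlapping groups for ACTB and without overlap for GAPDH. The 3′ minus 5′ signal of ACTB was 0.56, 0.59 and 0.49 on the control arrays and 0.78, 0.81 and 0.56 on the ANRIL siRNA arrays (exact permutation test, two-sided, p = 0.2, with 0.1 the lowest it allows), and that of GAPDH was 0.00 ± 0.01 and 0.06 ± 0.03 (mean ± SD, n = 3 each, exact permutation p = 0.1). Their part in the matrix values was not tested.

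The enzymes of collagen biosynthesis, which hydroxylate, fold and process the chains, were measured for 26 of 27 listed genes. None passed the adjusted threshold, 20 lay below 0 and 6 above, with a median of −0.06, but 13 lay on either side of 0 with either cyclic loess or quantile normalization. At an unadjusted p under 0.05, 4 were lower and 2 higher, beside 8.16% and 9.83% of all genes. LOXL1, an elastin crosslinker, differed by −0.24 ± 0.07 (adjusted p = 0.16), and the prolyl hydroxylase subunit P4HA3 by −0.15 ± 0.06 (0.219). ADAMTS2, the procollagen N-proteinase, differed by 0.19 ± 0.07 (0.204), and its relative ADAMTS3, near the floor at percentile 6.23 of mean signal, by 0.27 ± 0.11 (0.252) with overlapping groups. None of these 4 changed sign under the other scalings.

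Of 19 measured genes among 22 other basement membrane genes, 9 lay below 0 and 10 above, with a median of 0.01, and none passed. At an unadjusted p under 0.05, 4 were lower and 3 higher, beside 8.16% and 9.83% of all genes. LAMB3, a laminin chain known from epithelium, differed by −0.25 ± 0.07 (adjusted p = 0.169), and NTN4, a netrin that binds laminin networks, by −0.19 ± 0.06 (0.173). LAMC3, with overlapping groups, and LAMA2, at percentile 23.4 of mean signal, had differences above 0, each 0.23 ± 0.08 (0.186 and 0.213). Of 31 measured genes among 32 other interstitial matrix genes, 18 lay below 0, with a median of −0.04, none passed, and 4 were lower and 2 higher at an unadjusted p under 0.05, beside those same shares. VCAN, the large proteoglycan versican, differed by −0.24 ± 0.07 (0.162) and COL13A1, a transmembrane collagen, by −0.17 ± 0.06 (0.186). COL14A1, a fibril-associated collagen at percentile 22.6 of mean signal, differed by 0.22 ± 0.07 (0.176) and FBLN1, fibulin-1, by 0.18 ± 0.06 (0.203). In the signal decile of LAMA2 and COL14A1 the median of all genes was 0.07.

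Matrix receptors lay below 0 at 15 of 19 measured genes out of 21 listed, with a median of −0.11 that was −0.08 after cyclic loess, and none passed. At an unadjusted p under 0.05, 6 were lower and 0 higher, beside 8.16% and 9.83% of all genes, and 7 of the 19 were in the brightest decile, where 15.6% were lower. Of the 19, 16 were above the median signal, where 1383 of 9887 genes were lower and 312 higher. Among the integrins, ITGA3, which binds laminins, differed by −0.20 ± 0.06 (adjusted p = 0.176), ITGA2, a collagen receptor subunit, by −0.21 ± 0.07 (0.181) and ITGB3 by −0.21 ± 0.07 (0.199). SDC4, a heparan sulfate proteoglycan of focal adhesions, differed by −0.17 ± 0.06 (0.215).

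Markers of endothelium were high in all 6 arrays, with the mean of 12 markers at 11.50 to 11.56 on the control and 11.29 to 11.39 on the ANRIL siRNA arrays. All 12 lay below 0 and none passed. Of the 12, 10 were in the brightest decile, where 87.7% of all genes lay below 0. The median of the 12 markers was −0.17, and −0.10 after cyclic loess with 10 of 12 below 0. Fibroblast markers averaged 5.95 to 5.98 on the control and 5.95 to 6.05 on the ANRIL siRNA arrays, with 5 of 10 below 0. Smooth muscle markers averaged 7.48 to 7.57 and 7.51 to 7.56, with 4 of 9 below 0. Among them ACTA2 and TAGLN, named after their values were seen, lay lower without overlap, by differences of −0.26 ± 0.06 and −0.22 ± 0.07 (adjusted p = 0.147 and 0.184). Both were in decile 9 of signal, where 87.2% of all genes lay below 0. In the other direction, 5 of the 9 lay above 0, with CNN1 at 0.20, CASQ2 at 0.20, LMOD1 at 0.18 and MYOCD at 0.17. At an unadjusted p under 0.05, 2 of the 9 were lower and 2 higher. Epithelial markers averaged 7.37 to 7.38 and 7.32 to 7.39, with 4 of 6 below 0. Leukocyte markers averaged 5.73 to 5.80 and 5.80 to 5.98, with a median difference of 0.19 and 1 of 6 measured below 0. All but CD3E were in deciles 1 to 4 of signal. In those deciles 27% to 28.6% of all genes lay below 0, with medians of 0.06 to 0.07. No member of these 4 lists passed the adjusted threshold, and the part of such cells in the matrix values was not tested.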

How the data were processed

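Each of the 6 arrays has a column of 54675 deposited log2 values. The authors used RMA, affy and limma, per the submitters' processing notes, which give no versions here. RMA subtracts background, equalises the arrays' quantiles and summarises the probes of a set. Levels of different probe sets are not comparable. After leaving out 62 control probe sets, 54613 were tested. Of these, 41091 had 1 gene symbol, 1801 several, and 11721 were not named by the annotation used here. Symbols were updated through Entrez identifiers and RefSeq (GRCh38.p14).

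The linear model was run in R 4.3.3 (limma 3.58.1, lmFit then eBayes, prior variance constant), with p-values adjusted by Benjamini-Hochberg over 19775 genes. On simulated data of that size, 82% of 1.5-fold and 99% of 2-fold changes were recovered, with 10 false calls. The simulated noise was normal and independent between arrays, without the trend with brightness. Changes as small as those of the members, at most 1.18-fold lower, were not simulated, so their recovery is not known. The number of arrays limits the precision.

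The replicate number was not used. Full values are given for the 4 basement membrane members and the 2 members of each other kind with the smallest p, and for COL4A1, added as the partner of COL4A2. From each related list 4 genes are named by the same rule. The members and lists were chosen with earlier results of these data known.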

Additional observations from a re-analysis of the deposited data

How the results depend on the processing

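Of the 35 members, 19 kept their sign under each of the 16 settings in which they were measured. The count passing the adjusted threshold stayed at 0 except with the intensity-trended robust prior, where it was 4. That prior also gave 18 members lower and 1 higher at an unadjusted p under 0.05, where 12% of all genes were lower. The count lower was 3 and the count higher 2 with quantile normalization repeated, likewise with cyclic loess, and the count higher was 5 for cyclic loess joined to the trended prior, a setting added once the data were known. The count higher was 1 with the replicate block, with array weights, with genes above the median signal and without _s_at and _x_at probe sets. The replicate block gave 10 members lower and 0 passing. The deviations of same-numbered arrays from their group means correlated at 0.038, 0.185 and −0.024 across genes, and those of differently numbered arrays at −0.207 to 0.183. The numbers were not taken as pairs, since nothing in the labels says that a number marks a shared donor. Among the members, though, replicate 2 was most often highest and replicate 3 most often lowest in both groups. The genes of the brightest decile, which holds 21 members, also had replicate 2 highest in both groups. Relative to the control mean, that decile lay at −0.01, 0.03 and −0.01 on control replicates 1, 2 and 3. On ANRIL siRNA replicates 1, 2 and 3 it lay at −0.08, −0.03 and −0.11. Leaving out each array in turn gave 3 to 11 members lower and 0 to 1 higher, and medians of −0.17 to −0.10 for basement membrane and −0.10 to −0.05 for fibrillar genes.

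After repeated quantile normalization the medians were −0.06 for basement membrane, −0.02 for fibrillar and −0.04 for all members, after cyclic loess, with or without the trended prior, −0.04, −0.02 and −0.03. With arrays centred on their medians the fibrillar median was −0.12 and that of all members −0.15. The sign turned after cyclic loess, under both priors, for BGN (0.06), COL4A5 (0.05), COL5A2 (0.01), LAMA5 (0.01), HSPG2 (8e-05) and SPARC (0.0044), and after repeated quantile normalization for BGN (0.06), COL4A5 (0.07), COL5A2 (0.01) and LAMA5 (0.02). It turned with arrays centred on their medians for FN1 (−0.03), LOX (−0.04) and THBS1 (−0.05), and as the mean of all probe sets for COL6A1 (0.01), COL6A2 (0.07), FN1 (−0.01), LOX (−0.01), THBS1 (−0.07) and TNC (0.03). Without _s_at and _x_at probe sets it turned for AGRN (0.14), COL3A1 (0.18) and LUM (0.07), and with array weights for TNC (0.01). Leaving out an array turned BGN, COL1A2, COL6A2, LOX and THBS1, whose values lay between −0.08 and 0.02, −0.10 and 0.01, −0.10 and 0.06, −0.04 and 0.05, and −0.01 and 0.02 in that order. The cause of these turns was not tested.

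Without _s_at and _x_at probe sets 27 members were measured, and 5 members have no value among genes above the median signal. The deposited values hold no counts, so depth is not a measure here, and 2 members in the lowest decile of signal carry little information.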
